A study of Mus musculus with 11 samples.

Results

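The genes followed here through the cell types of the aged mouse lung belong to the complement system: C1qa, C1qb, C1qc, C1ra, C3, C4b, Hc, Cfb and Cfp. These 9 were chosen by symbol and are 9 of the 31053 genes in the deposited matrices. Each symbol matched a single row. Levels are CPM, the UMIs (unique molecular identifiers, counts of captured RNA molecules) of a gene per 1000000 UMIs of the cell barcodes summed in a library.

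The measurements were droplet-based 3′ RNA counts of dissociated whole lung, in 11 libraries of 4 genotypes. A single WT library was labelled wild type (+/+). The 3 p21Het libraries were labelled heterozygous for p21 (+/-), the 5 p21mTert libraries +/mTert, and the 2 p21mTertCD libraries +/mTertCD. The gene p21, or Cdkn1a, encodes a cell cycle inhibitor, and mTert is mouse telomerase reverse transcriptase. The labels do not spell out what sets the mTertCD allele apart. As these symbols are written, each replicated group has 1 + allele beside 1 altered allele. Red cells were lysed during dissociation. Age was labelled 18 months in all but 2 libraries, p21Het_1 at 19 and p21mTert_1 at 20 months, although those titles give 18. Names such as p21Het_1 give the group and replicate. Nothing in the labels says whether libraries came from separate animals, so p-values measure the spread between libraries only. A first deposit held WT_1, p21Het_1 and p21mTert_1, and a later one the other 8 libraries.

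Complement is a cascade of plasma proteins that marks surfaces for clearance. C1q, built from A, B and C chains, recognises antibody or damaged cells, and its protease C1r starts the classical pathway, in which C4 is cleaved. C3 is the point where all pathways meet, factor B and properdin (Cfp) form and hold the alternative convertase, and C5 (Hc in mouse) opens the terminal pathway. Liver supplies most plasma complement, while tissue macrophages are known for making C1q.

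After bounds on depth (1000 to 30000 UMIs) and on the mitochondrial share (14% at most), 69267 barcodes were kept, 4721 to 8525 per library, with a median of 4133 to 6454 UMIs. Of these, 63122 barcodes (91.1%) fell into 28 lineages by lists of marker genes that hold no complement gene. The ending -like marks that a lineage rests on RNA markers alone. No doublet caller was run. In 7426 barcodes (10.7% of all kept) at least 4 markers of a list from another compartment (for instance macrophage markers in a capillary cell) were also present. Pairs of libraries shared 4 to 20 barcodes, 617 of 68646 different barcodes in all. Marker-gated cell content differed between libraries. Library p21mTertCD_1 held 104 B-like and 2320 T-like barcodes, p21Het_3 held 1463 neutrophil-like barcodes, and p21mTert_4 held 220 alveolar fibroblast-like barcodes. Erythroid-like barcodes numbered only 6 in WT_1, 16 in p21Het_1 and 29 in p21mTert_1, while every library deposited later had at least 89. Median mitochondrial shares of these 3 libraries were 6.58%, 6.30% and 6.46%, above the highest later value of 4.28% (p21mTert_4). Deposits thus differed in both measures.

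Promoter sequences are shown for 2 members, C1qb of the macrophage pattern and C3 of the stromal pattern, since members of a pattern were high in the same lineages. Of the 9 genes, 6 had an entry in the RefSeq promoter table (GRCm38.p6), which runs from 250 bases before to 50 bases after the start of the gene; C1qa, C4b and Cfb had none. The 250 bases before the start are printed 5′ to 3′ on the strand of the gene. Capitals mark the letters GAGGAA (or TTCCTC on the other strand), known as a core of the myeloid factor PU.1, in C1qb, and the letters TTGCNNAA (or TTNNGCAA), a form of the C/EBP site, in C3.
C1qb (chr4:136886201-136886450, minus strand): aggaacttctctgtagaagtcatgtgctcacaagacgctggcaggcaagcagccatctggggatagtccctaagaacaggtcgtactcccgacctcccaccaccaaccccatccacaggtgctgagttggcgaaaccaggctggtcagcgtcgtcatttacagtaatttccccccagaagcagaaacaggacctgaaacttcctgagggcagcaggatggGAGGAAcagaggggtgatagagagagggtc
C3 (chr17:57228137-57228386, minus strand): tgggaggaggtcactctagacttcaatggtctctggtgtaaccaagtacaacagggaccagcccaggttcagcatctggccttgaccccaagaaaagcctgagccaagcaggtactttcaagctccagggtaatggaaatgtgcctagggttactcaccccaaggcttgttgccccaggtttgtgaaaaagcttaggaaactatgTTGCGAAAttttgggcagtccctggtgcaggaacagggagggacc
The PU.1 letters began at base -30 in C1qb and at -193 in C1qc, counted from the RefSeq start. The gene positions given below are from GENCODE, whose starts can differ. The 250-base window of C1qc, 136892915 to 136893164, and that of C1ra, 124512371 to 124512620, reach into those gene positions. Distances in C1qc and C1ra therefore hold for the RefSeq start only. Cfp held them at bases 6 and 22 after its start, and C1ra at base 44. Among 32851 promoters of the same length, 28.3% held these letters, so a match alone is common. The C/EBP letters lay at -45 in C3 and at base 16 after the start in C1ra, and were present in 10.8% of all promoters. The letters CAAGTG (or CACTTG), a core of the lung factor NKX2-1, were not in the window of Hc and were found in 13.6% of all promoters. A match is a string of letters and not a measured site.

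The C1q chains were highest by far in 1 lineage. In interstitial macrophage-like barcodes (the lung macrophages outside the airspace, gated on a list that includes Ms4a7, Mrc1, Apoe and Pf4) C1qa reached 5862 ± 393 CPM, C1qb 4779 ± 328 CPM and C1qc 3802 ± 334 CPM (SD, n = 11 libraries). The lineage next in order stood 79.0-fold lower for C1qa and 60.1-fold lower for C1qb, both in type 2 dendritic (cDC2)-like barcodes, and 111-fold lower for C1qc, in non-classical monocyte-like barcodes. Library ranges did not overlap between the first and the next lineage for any of the 3 chains. The genes lie side by side on chromosome 4 (GRCm38), C1qb at 136880129 to 136886187, C1qc at 136889804 to 136893065 and C1qa at 136895917 to 136898803, all on the minus strand within 18.7 kb.

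C1qa in interstitial macrophage-like barcodes was 5561 CPM in WT_1, with a Poisson 95% interval of 5344 to 5785 that covers counting error only. The p21Het libraries gave 5554, 5209 and 6222 CPM of C1qa, the p21mTert libraries 6307, 5459, 6002, 6503 and 5933 CPM, and the p21mTertCD libraries 5796 and 5932 CPM. The groups overlapped, with p21Het_2 lowest and p21mTert_4 highest. C1qb was 4572 CPM in WT_1, 4384, 4217 and 4919 CPM in p21Het, 5181, 4560, 5074, 5262 and 4797 CPM in p21mTert, and 4725 and 4876 CPM in p21mTertCD. C1qc was 3400 CPM in WT_1, 3241, 3438 and 4346 CPM in p21Het, 3835, 3730, 4002, 4138 and 3947 CPM in p21mTert, and 3772 and 3969 CPM in p21mTertCD. C1qb was lowest in p21Het_2 and highest in p21mTert_4, while C1qc had both its lowest and its highest value in p21Het. These sums rest on 50 to 232 barcodes per library, 1152 in all.

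**Figure D1:**
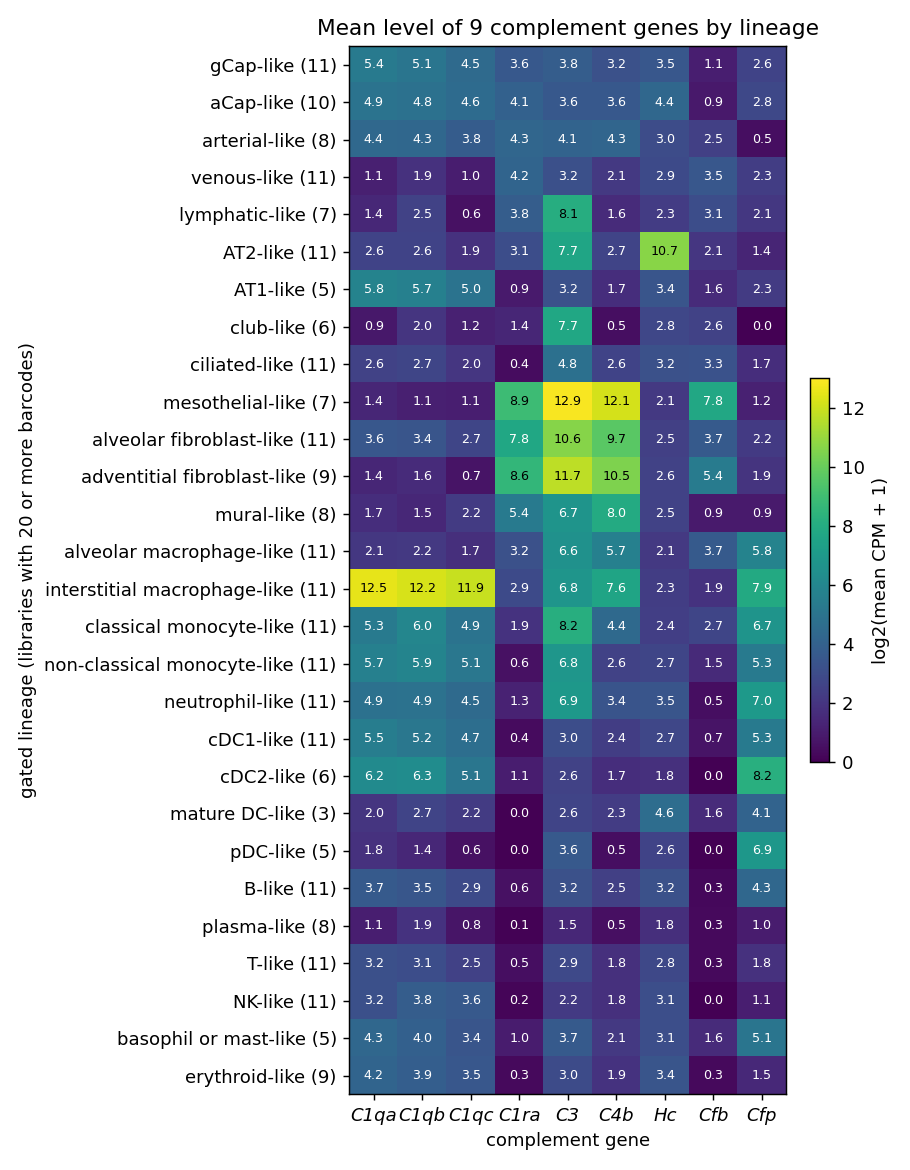
Mean level of each of the 9 genes (columns) in each gated lineage (rows), as log2(mean CPM + 1) over the libraries with at least 20 barcodes, whose number stands in parentheses. The C1q chains are brightest in the interstitial macrophage-like row, and C1ra, C3 and C4b in the mesothelial-like and fibroblast-like rows. Cfb is brightest in the mesothelial-like row and Hc in the AT2-like row.

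The 3 chains were present together in single cells. Of 1152 interstitial macrophage-like barcodes, 1141 (99.0%) held at least 1 UMI of every chain, and 5 held none. A median barcode had 62 UMIs of C1qa, 50 of C1qb and 40 of C1qc. The split of C1q UMIs over the chains varied little, with 40.6% ± 0.700 from C1qa, 33.1% ± 0.582 from C1qb and 26.3% ± 1.03 from C1qc (SD, n = 11 libraries). Counting from the 3′ end does not make these shares a ratio of protein chains. After thinning every barcode to 1000 UMIs, 98.2% ± 1.13 of interstitial macrophage-like barcodes kept a C1qa UMI, against 0.481% ± 0.528 (n = 9) of erythroid-like barcodes, a lineage that should not transcribe it. The unthinned shares were 99.5% and 1.34%, at median depths of 10734 and 3456 UMIs.

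Interstitial macrophage-like barcodes were on average 1.62% of the barcodes of a library (0.915% to 3.11%) and held 75.5% ± 6.31 of all C1qa UMIs, 72.0% ± 6.70 of C1qb and 75.5% ± 6.16 of C1qc (SD, n = 11). Barcodes without a lineage held a further 16.5% ± 5.95 of C1qa. Alveolar macrophage-like barcodes, the airspace macrophages gated on Ear1, Siglecf, Marco and 7 further genes, held almost none. Their C1qa level was 3.29 CPM, C1qb 3.47 CPM and C1qc 2.32 CPM, and 1941 of 2100 barcodes (92.4%) had no C1q UMI at all. The C1q chains thus separated the macrophage lineages, with no overlap of libraries.

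In several other lineages most C1q UMIs sat in few barcodes. Of 605 C1qa UMIs in general capillary (gCap)-like barcodes, 88.6% lay in 8 of 4328 barcodes with at least 10 UMIs. When barcodes with 4 markers of another compartment were left out, the C1qa level of gCap-like barcodes went from 39.8 to 4.04 CPM and that of erythroid-like barcodes from 17.4 to 3.85 CPM. In classical monocyte-like barcodes it was 38.9 CPM before and 41.4 CPM after, and in cDC2-like barcodes 74.2 ± 72.9 CPM (SD, n = 6) before and 78.5 CPM after. Macrophage, monocyte and dendritic lists counted as the same compartment. This step therefore could not remove macrophage RNA or doublets from these myeloid lineages, and their unchanged levels do not bear on its source. In classical monocyte-like barcodes, 43 of 2469 held at least 10 C1qb UMIs and 78.8% of the C1qb UMIs of the lineage. The C1qa level of interstitial macrophages was 5873 CPM without the barcodes that held markers of another compartment.

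**Figure D2:**
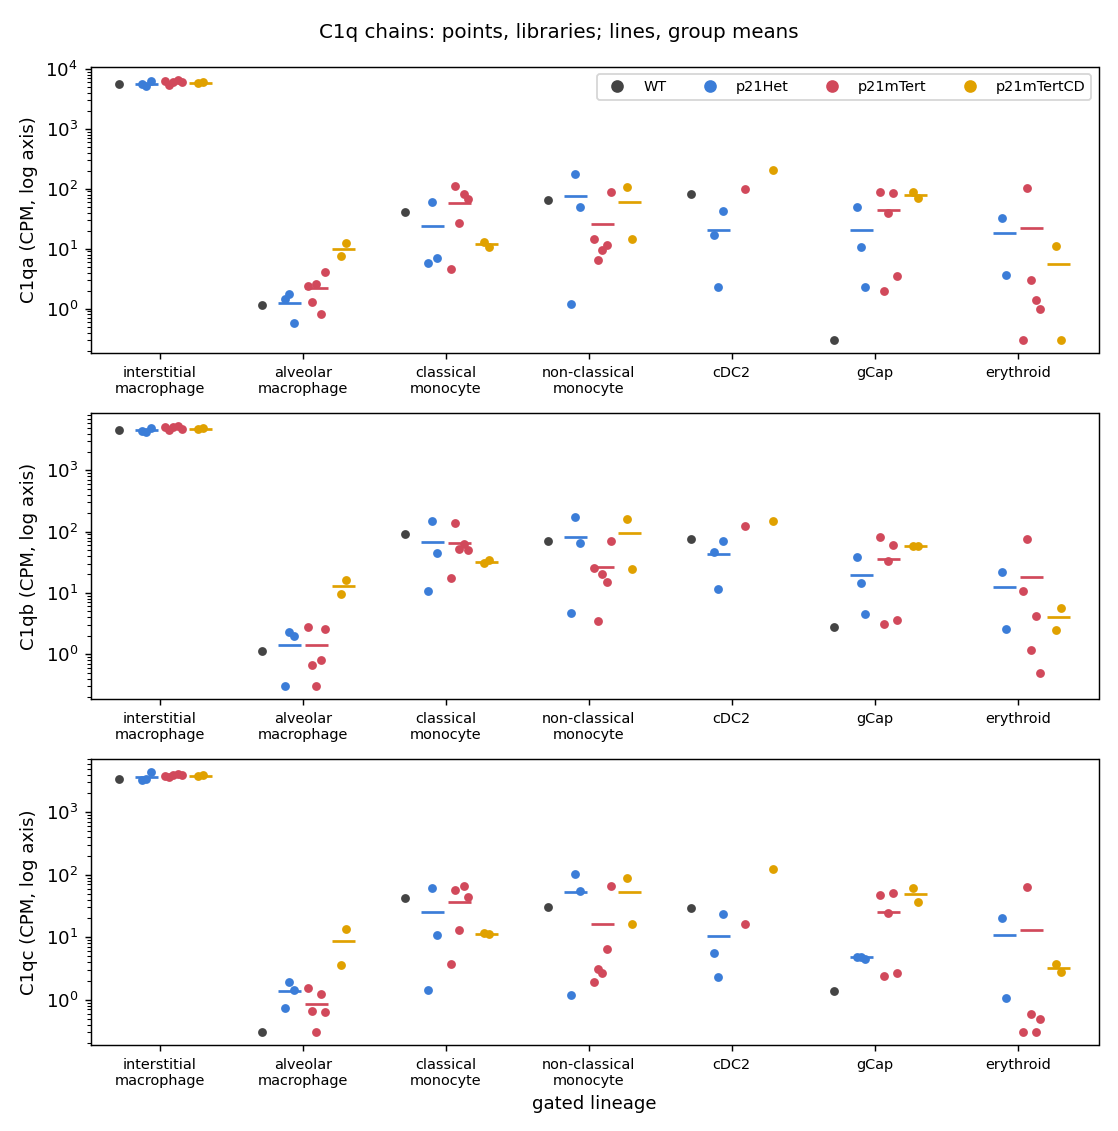
C1qa, C1qb and C1qc in CPM on log axes in 7 gated lineages, with 1 point per library coloured by genotype and a line at each group mean; values under 0.3 CPM are drawn at 0.3. Interstitial macrophage-like points lie in a narrow band far above all other lineages, whose points spread widely between libraries.

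C1ra, encoding a serine protease that C1q activates, was highest in mesothelium and fibroblasts. In mesothelial-like barcodes, the cells lining the lung surface, it was 640 CPM in WT_1, 555 and 441 CPM in p21Het, 405, 412 and 502 CPM in p21mTert, and 382 CPM in p21mTertCD. WT_1 was highest and p21mTertCD_2 lowest, and p21Het and p21mTert overlapped. The mean was 477 ± 94.1 CPM in mesothelial-like barcodes (SD, n = 7), 395 ± 57.5 CPM in adventitial fibroblast-like barcodes (n = 9) and 215 ± 48.7 CPM in alveolar fibroblast-like barcodes (n = 11). Library ranges of the first overlapped those of the second, and those of the second overlapped those of the third. Within libraries, adventitial exceeded alveolar fibroblasts in 9 of 9 libraries with both, while mesothelium exceeded adventitial fibroblasts in 4 of 7. Mural-like barcodes (pericytes and smooth muscle) followed at 40.1 ± 17.6 CPM (n = 8), with no overlap with alveolar fibroblasts. Interstitial macrophage-like barcodes, the source of C1q, held 6.56 ± 2.22 CPM of C1ra (SD, n = 11). The gene lies on chromosome 6 at 124512405 to 124523443, plus strand. Reads shared with its near-identical neighbour C1rb cannot be assigned with certainty, and C1rb itself reached at most 0.683 CPM in any lineage.

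C3 followed the same order at higher steps. Mesothelial-like barcodes held 8166 CPM in WT_1, 10392 and 7936 CPM in p21Het_2 and p21Het_3, 5518, 5306 and 9415 CPM in p21mTert_2, p21mTert_3 and p21mTert_4, and 6343 CPM in p21mTertCD_2. The p21mTert libraries held the lowest values and overlapped p21Het, whose p21Het_2 was highest. Their mean was 7582 ± 1945 CPM (SD, n = 7), 2.27-fold above adventitial fibroblast-like barcodes at 3333 ± 1092 CPM (n = 9), with no overlap of libraries. Alveolar fibroblast-like barcodes held 1566 ± 601 CPM (n = 11), and their library range overlapped that of adventitial fibroblasts, which were higher within 9 of 9 libraries with both.

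Outside the stroma, C3 stood at 286 ± 63.1 CPM in classical monocyte-like, 277 ± 178 CPM (n = 7) in lymphatic endothelial-like, 210 ± 70.5 CPM (n = 6) in club-like and 202 ± 83.1 CPM in AT2-like barcodes (SD, n = 11 where none is given). These 4 lineages overlapped each other in range. Erythroid-like barcodes held 6.75 ± 8.64 CPM (n = 9), and C3 was the gene of broadest reach, with a mean of at least 100 CPM in 11 of 28 lineages. Among the 11, the mean of 106 CPM in mural-like barcodes rests on few cells, with 89.0% of 255 C3 UMIs in 4 of 287 barcodes and a library median of 10.62 CPM. Thinned to 1000 UMIs, C3 was found in 97.7% ± 1.38 of mesothelial-like and 23.5% ± 4.39 of classical monocyte-like barcodes, against 0.731% ± 0.743 of erythroid-like barcodes. C3 lies on chromosome 17 at 57203970 to 57228136, minus strand.

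C4b, the substrate of C1s, led in the same cells. Mesothelial-like barcodes held 4771 CPM in WT_1, 5726 and 4868 CPM in p21Het, 3806, 3577 and 5450 CPM in p21mTert, and 3548 CPM in p21mTertCD_2. The highest and the lowest library belonged to p21Het and p21mTertCD, and p21Het and p21mTert overlapped. The mean was 4535 ± 899 CPM in mesothelial-like (n = 7), 1458 ± 182 CPM in adventitial fibroblast-like (n = 9) and 824 ± 329 CPM in alveolar fibroblast-like barcodes (SD, n = 11). Mesothelial libraries ran from 3548 to 5726 CPM and did not overlap the adventitial range of 1207 to 1812 CPM. Mural-like barcodes followed at 249 ± 118 CPM (n = 8) and interstitial macrophage-like barcodes at 194 ± 60.1 CPM (n = 11). In alveolar macrophages the libraries differed widely, from 3.41 CPM in WT_1 to 184 CPM in p21mTertCD_1, with a mean of 50.0 ± 52.6 CPM. C4b lies on chromosome 17 at 34728380 to 34743882, minus strand. Its near copy C4a has no row in the matrices, so the C4b count may hold C4a reads.

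Cfb, the protease subunit of the alternative convertase, was 222 ± 67.8 CPM in mesothelial-like barcodes (n = 7) and 40.9 ± 15.6 CPM in adventitial fibroblast-like barcodes (SD, n = 9), 5.42-fold lower and without overlap. Mesothelial values were 191 CPM in WT_1, 246 and 267 CPM in p21Het, 156, 165 and 344 CPM in p21mTert, and 184 CPM in p21mTertCD. The p21mTert libraries held both the lowest and the highest value. Alveolar fibroblast-like barcodes held 11.6 ± 2.91 CPM of Cfb, close to alveolar macrophage-like barcodes at 11.9 ± 5.81 CPM (SD, n = 11 each). Among all members Cfb gave the fewest UMIs, 2679 over all kept barcodes. Cfb lies on chromosome 17 at 34856374 to 34862518, minus strand.

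Mesothelial-like barcodes were few, with 216 in all, and 170 of them (78.7%) held 4 markers of another compartment. The 46 barcodes without such markers gave 7512 CPM of C3, 5322 CPM of C4b, 539 CPM of C1ra and 246 CPM of Cfb when pooled over libraries. The 170 with them gave 8029 CPM of C3, 4494 CPM of C4b, 476 CPM of C1ra and 227 CPM of Cfb. All 4 genes were high in both sets. With the marked barcodes left out, no library kept 20 mesothelial-like barcodes, and adventitial fibroblast-like barcodes led with 2643 CPM of C3, 1513 CPM of C4b, 356 CPM of C1ra and 38.7 CPM of Cfb (n = 7). Mesothelial-like barcodes were on average 0.311% of the barcodes of a library and held 26.1% ± 8.41 of C3, 37.3% ± 13.8 of C4b, 27.8% ± 13.01 of Cfb and 21.8% ± 8.65 of C1ra UMIs (SD, n = 11 libraries).

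**Figure D3:**
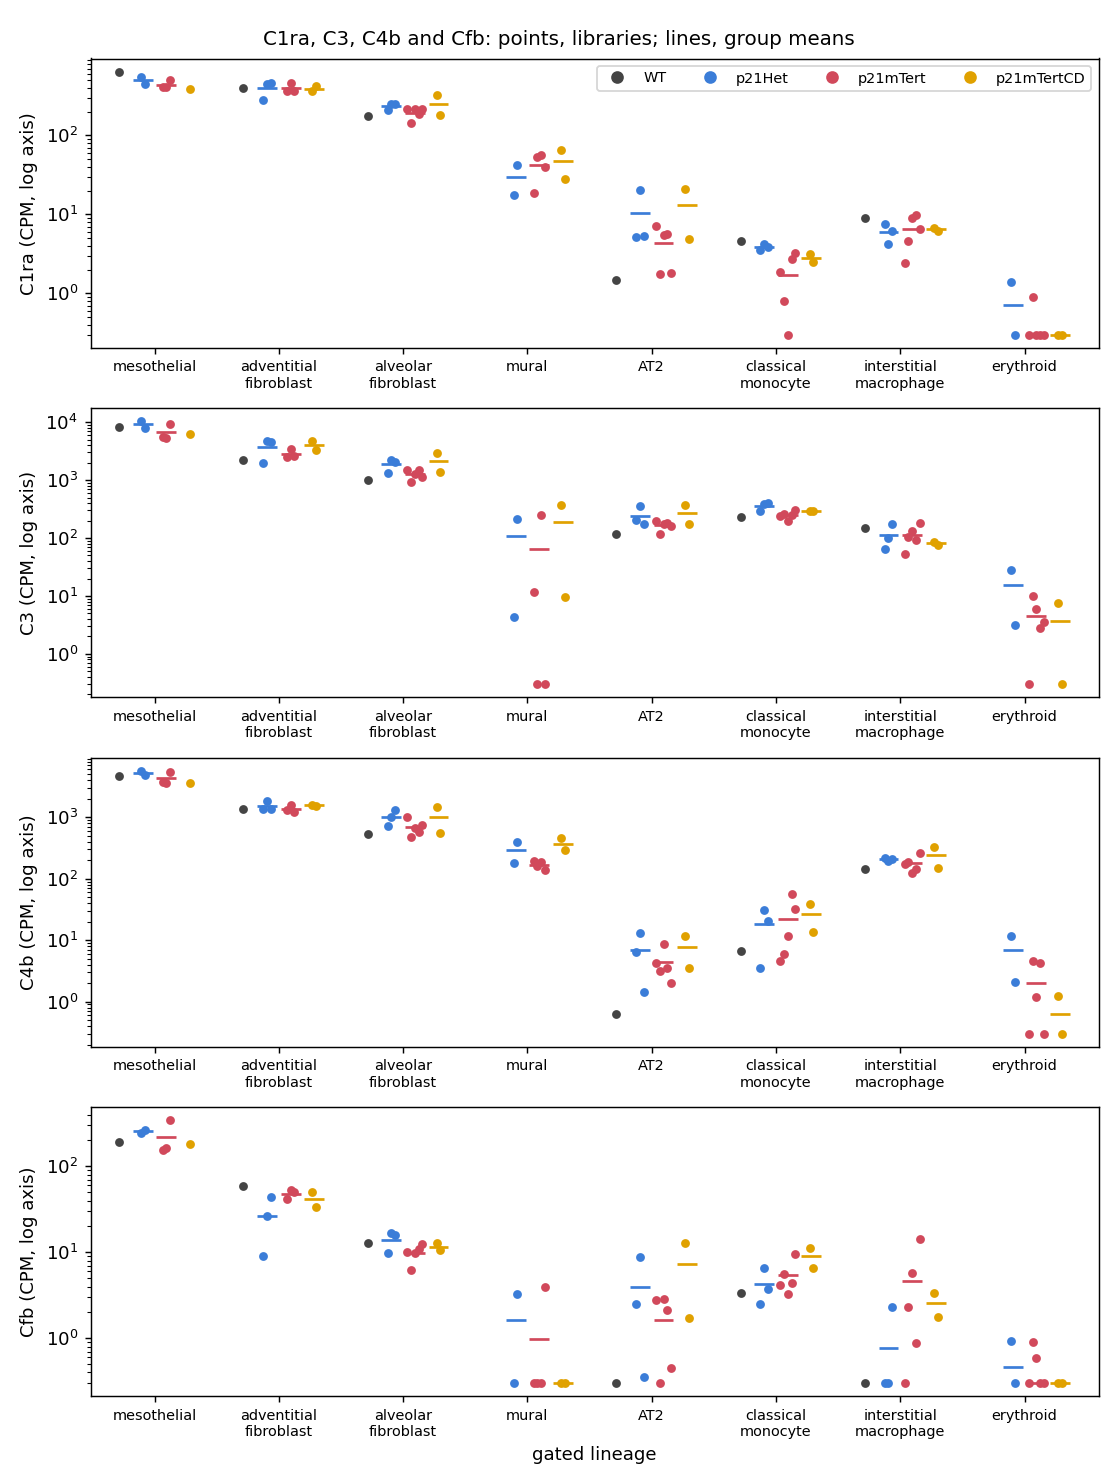
C1ra, C3, C4b and Cfb in CPM on log axes in 8 gated lineages, with 1 point per library coloured by genotype and a line at each group mean; values under 0.3 CPM are drawn at 0.3. C3, C4b and Cfb step down from mesothelial-like to adventitial fibroblast-like points, where C1ra overlaps, while C3 alone stays above 100 CPM in AT2-like and classical monocyte-like points.

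Hc, complement component C5, was highest in alveolar type 2 (AT2)-like barcodes. AT2-like barcodes, the surfactant-making epithelium, held 1377 CPM in WT_1, with a Poisson 95% interval of 1343 to 1410. The p21Het libraries gave 1599, 2028 and 1558 CPM of Hc, the p21mTert libraries 1685, 1704, 1505, 1716 and 1549 CPM, and the p21mTertCD libraries 1684 and 1558 CPM. The groups overlapped, with p21Het_2 highest and WT_1 lowest. The mean was 1633 ± 166 CPM (SD, n = 11), 68.5-fold above the next lineage, mature dendritic-like barcodes with 3 libraries. With barcodes left out that also reached the minimum of a second marker list, it was 875 CPM (n = 11). AT2-like barcodes held 94.0% ± 1.67 of all Hc UMIs, between 91.2% and 96.1% in every library. Thinned to 1000 UMIs, 64.7% ± 3.06 of AT2-like and 1.32% ± 0.970 (n = 9) of erythroid-like barcodes kept an Hc UMI. At 9.66 CPM (0 to 21.1 CPM, n = 9), erythroid-like barcodes ranked 6 of 28 lineages, and aerocyte (aCap)-like, gCap-like and neutrophil-like barcodes overlapped them in range. Hc lies on chromosome 2 at 34983331 to 35061438, minus strand.

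Cfp, properdin, which stabilises the alternative convertase, was spread over myeloid cells. In cDC2-like barcodes it was 343 CPM in WT_1, 288, 323 and 329 CPM in p21Het, 235 CPM in p21mTert_1 and 234 CPM in p21mTertCD_2, with too few barcodes in the other libraries. The p21Het libraries lay above the single p21mTert and p21mTertCD libraries, in a lineage that was not tested. The p21mTert_1 library was also the lowest of its group for Cfp in interstitial macrophage-like barcodes, at 140 CPM. The mean was 292 ± 48.1 CPM in cDC2-like barcodes (n = 6), 239 ± 77.8 CPM in interstitial macrophage-like, 124 ± 18.5 CPM in neutrophil-like, 103 ± 32.2 CPM in classical monocyte-like and 55.4 ± 12.3 CPM in alveolar macrophage-like barcodes (SD, n = 11 otherwise). Plasmacytoid dendritic-like barcodes stood between neutrophils and monocytes at 119 ± 32.2 CPM (n = 5). Each of these neighbours in the order overlapped the next in range. At the lower bound of the gate lay 90 of 216 cDC2-like barcodes (41.7%). With a gate of 1 marker more, interstitial macrophage-like barcodes led for Cfp at 229 CPM (n = 11). Erythroid-like barcodes held 1.85 ± 2.86 CPM (n = 9). The largest sources of Cfp UMIs with a lineage were classical monocytes at 15.6% ± 7.20, interstitial macrophages at 14.6% ± 4.52 and neutrophils at 13.9% ± 6.68 (SD, n = 11). Cfp lies on chromosome X at 20925454 to 20931555, minus strand.

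**Figure D4:**
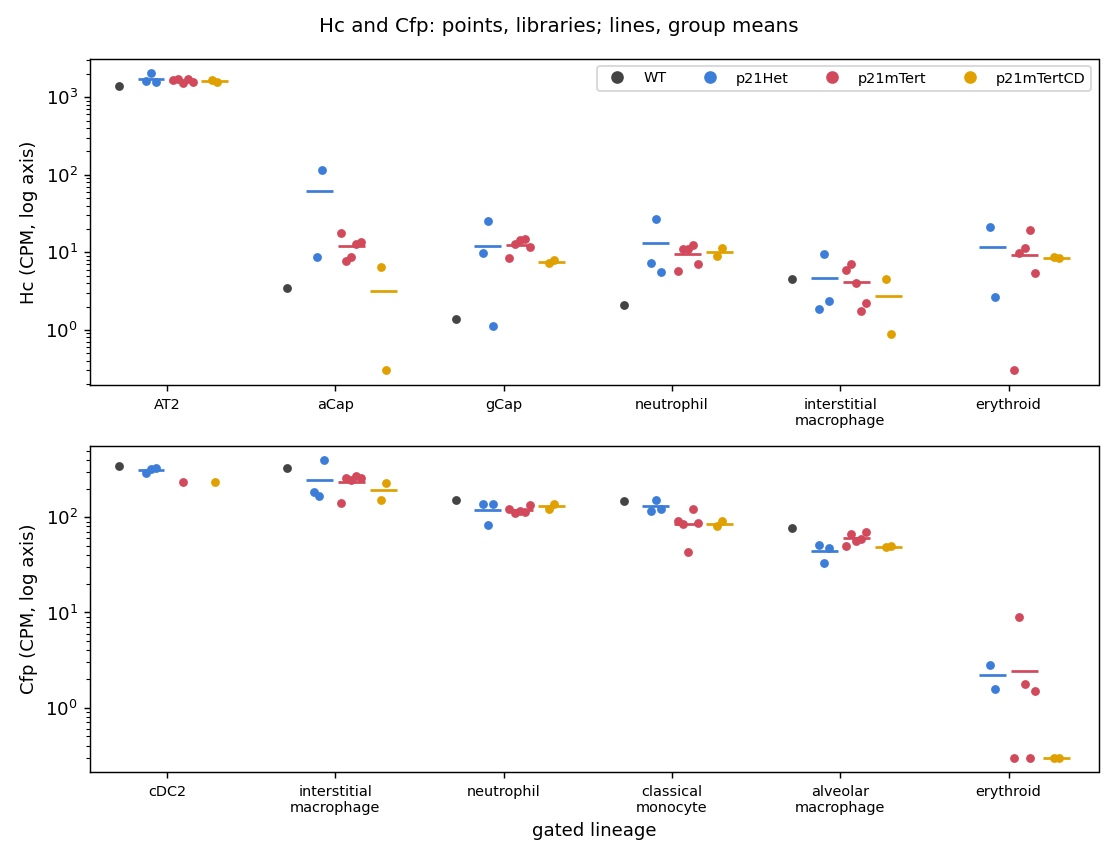
Hc and Cfp in CPM on log axes in 6 gated lineages each, with 1 point per library coloured by genotype and a line at each group mean; values under 0.3 CPM are drawn at 0.3. Hc points are above 1000 CPM in AT2-like barcodes alone, while Cfp points step down gradually from cDC2-like to alveolar macrophage-like barcodes.

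The genes most like each member over the 28 lineages were found by Pearson r of log2(mean CPM + 1) among 13874 genes, as a description of lineage means that share libraries and depth. C1qa was nearest to C1qc and C1qb, both at r = 0.983, and then to Ms4a7 at 0.836, which is a gate marker. C1qb and C1qc were each nearest to C1qa (0.983), then to each other (0.980) and then to Ms4a7 (0.854 and 0.869). C1ra was nearest to Nnmt (0.945), Gm14403 (0.935) and L3hypdh (0.932). C4b also led with Nnmt (0.907), then Ildr2 (0.898) and Gata5 (0.894). C3 was nearest to C1rl (0.867), a complement protease relative, then Rhou (0.849) and H6pd (0.838). Hc was nearest to Lamp3 (0.938) and Slc34a2 (0.935), both gate markers of AT2 cells, and Sftpc (0.934), the surfactant protein C gene. Cfb was nearest to Rab40b (0.824), Has1 (0.818) and Efemp1 (0.816), and Cfp to Pirb (0.946), Gm46224 (0.941) and Nfam1 (0.920).

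The rest of the pathway was read from a list of 42 further complement genes, of which 41 had a row. Of these, 18 reached 100 CPM in some lineage and 28 reached 10 CPM. Among the classical pathway genes C2 led in mesothelial-like barcodes at 731 ± 77.8 CPM (n = 7) and C1s1 in adventitial fibroblast-like barcodes at 686 ± 107 CPM (SD, n = 9), the lineages of C1ra and C4b. Of the genes listed under the lectin pathway, the collectin Colec12 led in alveolar fibroblasts at 605 ± 73.2 CPM and the ficolin Fcna in interstitial macrophages at 122 ± 130 CPM (n = 11). Colec11 reached at most 24.2 CPM and Mbl1 at most 3.55 CPM as a lineage mean. Of the terminal pathway, C7 led in alveolar fibroblasts at 491 ± 117 CPM and C6 in AT2-like barcodes at 144 ± 24.2 CPM, the lineage of Hc. C8a, C8b, C8g and C9 stayed at or under 2.91 CPM in every lineage.

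Serping1, the C1 inhibitor, led in adventitial fibroblasts at 2654 ± 279 CPM (n = 9), and clusterin (Clu) in mesothelial-like barcodes at 1931 ± 119 CPM (SD, n = 7). Cd93 led in gCap-like barcodes at 1919 ± 250 CPM and the integrin chain Itgb2 in non-classical monocyte-like barcodes at 922 ± 96.5 CPM (n = 11). Factor D (Cfd), the protease that activates factor B, reached no more than 0.146 CPM in any lineage.

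Genotype was tested within 19 lineages that kept at least 2 libraries of each replicated group, with edgeR's quasi-likelihood test over all genes and Benjamini-Hochberg adjustment. Between p21mTert and p21Het, 0 of 99 pairs of a member and a lineage passed an adjusted p of 0.05, against 0.0332% of all pairs of a gene and a lineage. Between p21mTert and p21mTertCD it was 0 of 99, against 0.056% of all pairs, and between p21mTertCD and p21Het 0 of 99, against 0.0866%. DESeq2 called 0, 2 and 0 pairs in that order. At an unadjusted p under 0.05 there were 16, 17 and 10 pairs, 16.2%, 17.2% and 10.1% of the members' pairs, beside 5.33%, 6.27% and 4.86% of all pairs. Pairs share libraries and members, and the contrasts share groups, so these shares are a description. Of the 16 pairs between p21mTert and p21Het, 13 had lower values in p21mTert. By gene, 5 were of C3, 3 each of C1qc and Cfp, 2 of C1qa, and 1 each of C1qb, C1ra and C4b. The C1q pairs lay in gCap-like, aCap-like, non-classical monocyte-like, type 1 dendritic-like and T-like barcodes. In these, the few barcodes with at least 10 UMIs held 55.4% to 95.5% of the UMIs of the chain. In aCap-like barcodes, 2 of 877 held 89.6% of the C1qa UMIs.

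Over all barcodes of a library, 0 of 9 members were called in each contrast, against 0.0114%, 0.00571% and 0.12% of all genes in the same order. None had an unadjusted p under 0.05 there, and DESeq2 called 0. In such sums fewer cells of a type and less RNA per cell cannot be told apart. C1qa over all barcodes ran from 92.7 CPM in WT_1 to 318 CPM in p21mTertCD_1, and Hc from 92.7 CPM in p21Het_3 to 305 CPM in p21Het_2.

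In their leading tested lineages no member passed the test between genotypes. In interstitial macrophages the log2 difference of p21mTert minus p21Het was 0.14 ± 0.10 (SE) for C1qa, 0.19 ± 0.11 for C1qb and 0.14 ± 0.12 for C1qc, with edgeR adjusted p of 0.999 for each. That of p21mTert minus p21mTertCD was -0.0054 ± 0.12 for C1qa. For Hc in AT2-like barcodes the log2 differences were -0.08 ± 0.13 against p21Het and -0.02 ± 0.15 against p21mTertCD (adjusted p 0.962 and 0.990). In adventitial fibroblasts the log2 difference of p21mTert minus p21Het was -0.34 ± 0.29 for C3 and -0.07 ± 0.20 for C4b (adjusted p 0.986 and 1.00). Among the later libraries alone the C3 value was -0.65 (adjusted p 0.752). Mesothelial-like barcodes were not tested, since only 1 p21mTertCD library held 20 of them.

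C3, tested in more lineages than any other member, had the largest number of low unadjusted p-values between p21mTert and p21Het, 5 of 15. Its log2 difference was negative in 12 of 15 lineages tested, with a median of -0.46, beside -0.15 over all 99 member pairs. In classical monocytes the p21Het libraries held 289, 385 and 409 CPM and the p21mTert libraries 236, 261, 199, 254 and 304 CPM. The highest p21mTert library lay above the lowest p21Het library. The log2 difference was -0.46 ± 0.13 (edgeR adjusted p = 0.412), and -0.59 (adjusted p = 0.0899) in the later deposit. In non-classical monocytes it was -0.71 ± 0.19 (adjusted p = 0.470), and -0.88 (adjusted p = 0.266) in the later deposit. In neutrophils it was -0.85 ± 0.34 (edgeR adjusted p = 0.704), in alveolar fibroblasts -0.58 ± 0.24 (adjusted p = 0.918) and in ciliated-like barcodes -1.27 ± 0.50 (adjusted p = 0.461). Neutrophil libraries overlapped, at 83.7 to 264 CPM in p21Het and 72.4 to 128 CPM in p21mTert. Leaving out each library in turn, the difference ran from -1.24 to -0.31 in neutrophils and from -0.79 to -0.36 in alveolar fibroblasts. Without the filter on low counts, edgeR called C3 in classical monocytes (-0.48, adjusted p = 0.0126) and non-classical monocytes (-0.70, adjusted p = 0.000592). It also called C3 in neutrophils (-0.89, adjusted p = 0.000362) and ciliated-like barcodes (-1.26, adjusted p = 0.000551). That setting called 14.7% of 170 member pairs, beside 0.52% of all pairs. Its calls also held C1q chains of both signs, such as C1qa in alveolar fibroblast-like (3.61) and aCap-like barcodes (-2.71). There 1 of 986 and 2 of 877 barcodes each held 89.6% of the C1qa UMIs, so a call under this setting can rest on single barcodes. Ciliated-like levels of C3 were low and overlapped, at 7.81 to 62.0 CPM in p21Het and 1.30 to 21.5 CPM in p21mTert. In AT2-like barcodes, where the unadjusted p was above 0.05, the difference was -0.59 ± 0.28 (edgeR adjusted p = 0.879). It ran from -0.79 to -0.13 when each library was left out in turn. Against p21mTertCD, C3 was lower in p21mTert in 11 of 15 lineages, with 4 unadjusted edgeR p-values under 0.05. C4b was lower there in 14 of 14 (median -0.85), with 1 such p-value. Between p21mTertCD and p21Het, C4b was higher in p21mTertCD in 14 of 14 lineages (median 0.81), with 0 such p-values. Several of the lineages counted lay near the level of erythroid-like barcodes. C4b was 2.46 CPM in T-like and 4.57 CPM in B-like barcodes, beside 2.77 CPM (0 to 11.7 CPM) in erythroid-like barcodes. C3 was 6.39 CPM in T-like and 7.27 CPM in type 1 dendritic-like barcodes, beside 6.75 CPM in erythroid-like barcodes. Lineages also share libraries, so these counts are a description.

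The libraries p21Het_2 and p21mTertCD_1 gave the 2 highest C3 values in alveolar fibroblasts, at 2215 and 2924 CPM. They were also the 2 libraries with the largest share of ungated barcodes, 12.997% and 12.5%, against 5.52% to 7.54% in the others. The part of these barcodes in the C3 values was not tested.

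C1q of alveolar macrophages was higher in both p21mTertCD libraries. C1qb there was 1.14 CPM in WT_1, at most 2.31 CPM in p21Het, at most 2.73 CPM in p21mTert, and 9.75 and 15.9 CPM in p21mTertCD. The log2 difference of p21mTert minus p21mTertCD was -3.16 ± 0.63 (edgeR adjusted p = 0.377), while DESeq2 gave an adjusted p of 0.0403. A single barcode held 31 of 49 C1qb UMIs in p21mTertCD_1 and 54 of 60 in p21mTertCD_2. Without barcodes of at least 10 UMIs the levels were 3.60 and 1.61 CPM, the first above all other libraries and the second within their range. Those of C1qa were 2.40 and 2.14 CPM and those of C1qc 1.00 and 1.07 CPM, all within the range of the other libraries.

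Leaving out a single library brought calls that rest on 1 library of a group. Without p21mTertCD_2, 5 member pairs were called between p21mTert and p21mTertCD (C1qa, C1qb and C1qc in ciliated-like, C4b in T-like and C4b in aCap-like barcodes), each against the lone p21mTertCD_1. These were 4.2% of 119 member pairs, beside 0.824% of all pairs in that fit. Without p21Het_1, the log2 difference of Hc in aCap-like barcodes was -3.52 for p21mTert and -5.58 for p21mTertCD against the lone p21Het_2. That library held 116 CPM of Hc, against at most 18.0 CPM in p21mTert. The fit assumes that a lone library varies like the other groups. Without p21mTertCD_2, the log2 difference of C1qb in ciliated-like barcodes, p21mTertCD minus p21Het, was 5.32. Single barcodes carried much of these counts. In ciliated-like barcodes 1 of 1600 held 61.2% of the 103 C1qa UMIs, 60.2% of C1qb and 52.3% of C1qc. In aCap-like barcodes 1 of 877 held 52.1% of the 96 Hc UMIs, and 1 held 56.5% of the 23 C4b UMIs. C4b of T-like barcodes was less concentrated, with 11.03% of 263 UMIs in 2 barcodes. Without barcodes that held markers of another compartment, the mean Hc level of aCap-like barcodes was 10.5 CPM in place of 19.5 CPM.

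**Figure D5:**
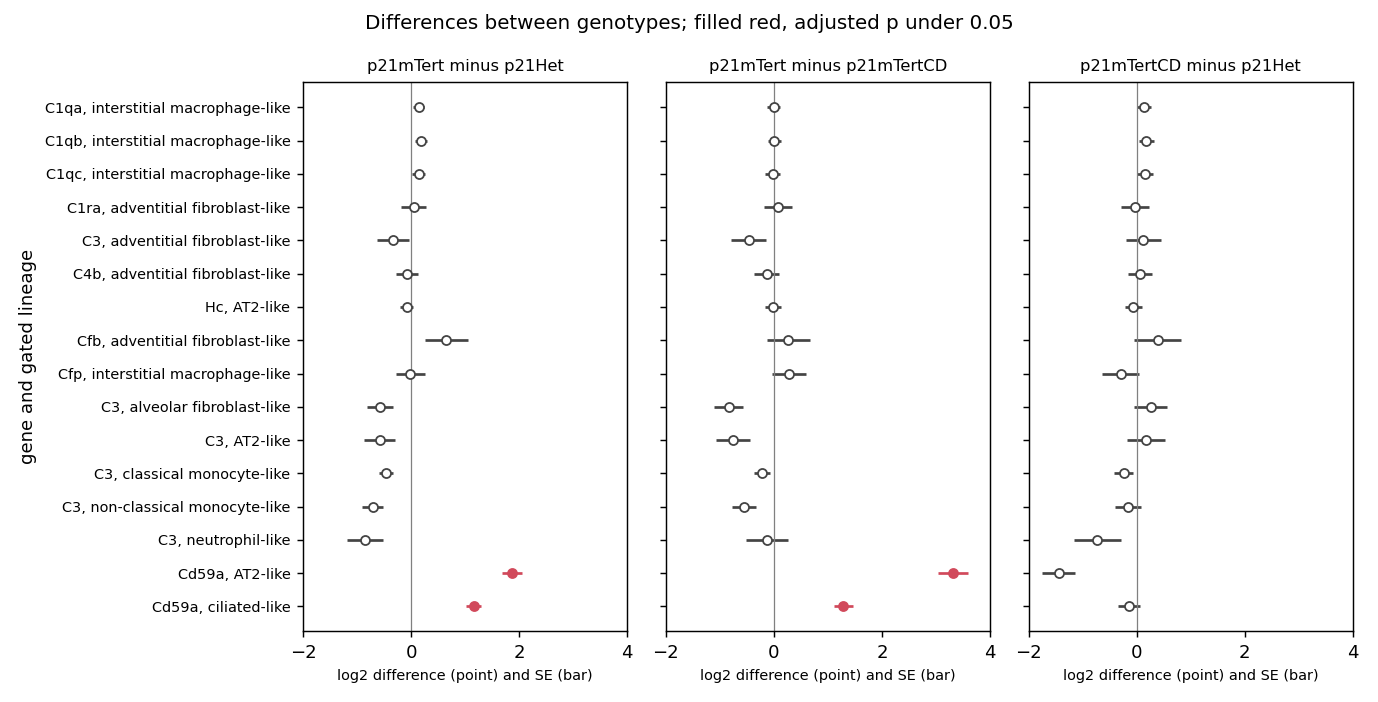
Log2 difference (point) and standard error (bar) from edgeR for each member in its leading tested lineage, for C3 in 5 further lineages and for Cd59a, in the 3 contrasts. Filled red points have an adjusted p under 0.05; only the 4 Cd59a points of the p21mTert contrasts are filled, and no point of the C1q chains lies farther than 0.19 from 0.

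Among the other complement genes, Cd59a rose in AT2-like and ciliated-like barcodes of p21mTert. Cd59a encodes a membrane inhibitor of the terminal attack complex. Its level was highest in mural-like barcodes, at 84.1 ± 13.9 CPM (SD, n = 8), where it was not called. Over all barcodes of a library it was 7.75 to 16.4 CPM in p21mTert and 3.12 to 6.35 CPM in the other libraries, so the higher level was not seen in these 2 lineages alone. Against p21Het, 0.061% of all genes tested were called in AT2-like and 0.0653% in ciliated-like barcodes, and against p21mTertCD 0.0349% and 0.028%. In AT2-like barcodes it was 9.69 CPM in WT_1 (Poisson 95% interval 7.10 to 12.9), 8.69, 6.35 and 11.1 CPM in p21Het, 24.2, 32.5, 30.1, 29.8 and 32.4 CPM in p21mTert, and 3.47 and 2.32 CPM in p21mTertCD. All 5 p21mTert libraries lay above all others. The log2 difference was 1.87 ± 0.18 against p21Het (edgeR adjusted p = 0.00129) and 3.31 ± 0.27 against p21mTertCD (adjusted p = 0.000454). It was 1.94 (adjusted p = 0.0116) and 3.39 (adjusted p = 0.00116) among the later libraries.

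In ciliated-like barcodes Cd59a was 24.7 CPM in WT_1, 25.2 to 32.5 CPM in p21Het, 60.7 to 71.1 CPM in p21mTert and 20.6 and 33.8 CPM in p21mTertCD, again without overlap of p21mTert with the others. The log2 differences were 1.15 ± 0.14 (edgeR adjusted p = 0.00357) and 1.29 ± 0.18 (adjusted p = 0.0164). The second call was lost without p21mTertCD_1 (0.98, adjusted p = 0.228) and without p21mTert_3 (1.24, adjusted p = 0.0514). Both ciliated calls were lost when barcodes with markers of another compartment were left out, which removed 839 of 1600 ciliated-like barcodes. The differences were then 1.12 ± 0.31 and 1.23 ± 0.45 (adjusted p = 0.433 and 0.509). In total, 2 pairs of 191 from 30 genes rose and 0 fell against p21Het, 2 rose and 1 fell against p21mTertCD, and 0 were called between p21mTertCD and p21Het. Cd59a lies on chromosome 2 at 104095801 to 104115354, plus strand, and its near copy Cd59b makes its counts uncertain.

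The gene that fell was Itgax, the CD11c chain of complement receptor 4, in T-like barcodes. It was 3.08 to 7.62 CPM in p21mTert and 56.9 and 26.7 CPM in p21mTertCD (log2 difference -3.02 ± 0.38, edgeR adjusted p = 0.0421), in a lineage where 0.0407% of all genes tested were called. Other groups held 6.55 to 15.8 CPM. The call was lost in 12 of 21 alternatives, among them the later deposit alone (adjusted p = 0.225) and leaving out p21mTertCD_1 (-2.43, adjusted p = 0.0588). Alveolar macrophage-like barcodes, where Itgax was highest, held 416 ± 69.3 CPM of it (SD, n = 11).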

How the data were processed

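Per the submitters' processing notes, reads were mapped to mm10 with Cell Ranger; the design text and the matrix headers name different versions, so none is printed. The deposited matrices hold whole-number UMI counts per gene and barcode; the bounds on UMIs and mitochondrial share in the design text were applied here, and its scran normalization was not.

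A barcode took the lineage with the most detected markers among 23 lists of 10 genes (at least 3, leading the next list by 2). Endothelial cells and fibroblasts were split by lists of 8 genes (at least 2, leading by 1). At the lower bound of this rule lay 471 of 2100 alveolar macrophage-like and 224 of 1152 interstitial macrophage-like barcodes. A median alveolar macrophage-like barcode held 9 of 10 own markers and 5 of 10 of type 1 dendritic cells, a median interstitial macrophage-like barcode 8 and 3. Counts were summed per library and lineage where at least 20 barcodes remained. The 10 replicated libraries were fitted together by the quasi-likelihood test of edgeR 4.0.16, after TMM scaling and the filterByExpr filter, with DESeq2 1.42.0 as an alternative (R 4.3.3). The code was tested on simulated data. Tables and figures used Python 3.11.15, numpy 2.4.6, scipy 1.17.1, pandas 2.3.3 and matplotlib 3.10.9. WT, with 1 library, entered no test. The deposited libraries held 42038434 to 85988955 UMIs, and 36248337 to 67722156 in kept barcodes; intervals cover counting error only.

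The members, gene lists, markers and tests were chosen with earlier results of these data known. Named are the 9 members, other complement genes that were called, the 2 highest of each role group, and the 3 genes most like each member. Of 31053 gene identifiers 31011 were found in GENCODE M21, the source of positions (GRCm38); promoters are from RefSeq (GRCm38.p6). Alternatives covered normalization, filters, deposit, replicate number, gates, mitochondrial share and single libraries. Leaving out barcodes with markers of another compartment was added after seeing the data.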

Additional observations from a re-analysis of the deposited data

Results flagged for a closer look

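Among 14 groups of 5 libraries, 2 held a library set apart from the rest by Dixon's criterion at 95%; chance gives about 1 in 20. C3 over all barcodes was 236 CPM in p21mTert_4, while the other p21mTert libraries lay between 103 and 136 CPM. Alveolar fibroblast-like barcodes, a lineage high in C3, were 3.51% of p21mTert_4 and 0.772% to 1.61% of the other p21mTert libraries. The part of cell content in this value was not tested. Cfp in interstitial macrophage-like barcodes was 140 CPM in p21mTert_1, while the other p21mTert libraries lay between 246 and 272 CPM. p21mTert_1 is the only p21mTert library of the first deposit and the one labelled 20 months.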

How the results depend on the processing

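Over all barcodes 0 members were called under every alternative run. Within lineages, where 0 of 99 pairs were called in each contrast, no filter on low counts gave 25 calls of p21mTert against p21Het, 27 of p21mTert against p21mTertCD and 16 of p21mTertCD against p21Het among 170 pairs (14.7%, 15.9% and 9.41%, beside 0.52%, 0.553% and 0.382% of all pairs). The calls without a filter included C1q chains in lineages where 1 or 2 barcodes held most UMIs of the chain, such as C1qa in aCap-like barcodes. DESeq2 gave 2 in the second contrast (2.02%, beside 0.253%). The replicate block gave 1, 1 and 0 calls among 99 pairs (1.01%, 1.01% and 0%, beside 0.0117%, 0.00976% and 0.0384% of all pairs). Both were of C3 in mural-like barcodes (-3.08, edgeR adjusted p = 0.000616, and -3.61, adjusted p = 0.000411), where the mean went from 106 to 14.0 CPM without barcodes of another compartment. Leaving out 1 library gave calls only where a group was left with 1 library in the lineage. The leading lineage was the same for 9 of 9 members under the other settings run except 1 marker more (8), for only 4 when barcodes with a second list at the minimum were left out, and for only 5 when those with markers of another compartment were left out; both remove most mesothelial-like barcodes, and the former leaves 1 library of interstitial macrophages. The other causes were not tested.

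Correlations of same-numbered libraries over 7 pairs ran from -0.511 to 0.249 over all barcodes, -0.634 to 0.363 in AT2-like and -0.246 to 0.269 in interstitial macrophage-like barcodes. Not every pair was above 0.1, so the numbers were not taken as pairs, although p21Het_1 with p21mTert_1 was positive in each set (0.206, 0.363 and 0.269). Under the replicate block the calls of Cd59a were lost (AT2-like 1.83, adjusted p = 0.203, and 3.20, adjusted p = 0.169; ciliated-like 1.18, adjusted p = 0.158, and 1.29, adjusted p = 0.357), as was Itgax in T-like barcodes (-2.99, adjusted p = 0.756). DESeq2 gave no adjusted p for Cd59a in ciliated-like barcodes against p21mTertCD.

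All sign changes were of uncalled log2 differences. Of p21mTert minus p21mTertCD in interstitial macrophages, C1qa became 0.0091 with a term for deposit, 0.0021 in the later deposit and 0.032 with 1 marker fewer; C1qb -0.019 without a filter, -0.012 with the block, -3.05e-05 with 1 marker more and -0.014 without barcodes of another compartment; C1qc 0.024, 0.0082 and 0.0072 under the settings named for C1qa; Cfp -0.094 with the block. In adventitial fibroblasts, C1ra became -0.14 (deposit term) and -0.13 (later deposit) for p21mTert minus p21Het, -0.13 (block) against p21mTertCD, and 0.019 (no filter) and 0.15 (block) for p21mTertCD minus p21Het. There C3 became -0.19 and C4b -0.023 for p21mTertCD minus p21Het in both deposit settings, C4b 0.037 (block) for p21mTert minus p21Het, and Cfb -0.013 (block) against p21mTertCD. Hc in AT2-like barcodes became 0.30, 0.19 and 0.12 in the 3 contrasts without a second list at the minimum, and 0.013 (deposit term), 0.054 (block) and 0.0052 (1 marker fewer) against p21mTertCD. Cfp in interstitial macrophages became 0.080 without barcodes of another compartment and 0.0063 without the mitochondrial bound against p21Het, and 0.046 (block) for p21mTertCD minus p21Het.

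Leaving out each library in turn, p21mTert minus p21mTertCD ran from -0.051 to 0.040 for C1qa, -0.035 to 0.044 for C1qb, -0.054 to 0.0074 for C1qc, -0.058 to 0.17 for C1ra, -0.099 to 0.062 for Hc and -0.063 to 0.58 for Cfb. For p21mTert minus p21Het it ran from -0.13 to 0.17 for C1ra, -0.20 to 0.12 for C4b, -0.18 to 0.11 for Hc and -0.21 to 0.46 for Cfp. For p21mTertCD minus p21Het it ran from -0.21 to 0.10 for C1ra, -0.20 to 0.40 for C3, -0.027 to 0.27 for C4b, -0.16 to 0.14 for Hc and -0.55 to 0.18 for Cfp.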
